A study of Saccharomyces cerevisiae with 18 samples.

Results

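Ribosome biogenesis factor genes encode the nucleolar proteins that process pre-rRNA and assemble both ribosomal subunits. The 59 genes described here were chosen by identifier from the 6692 genes counted. They are NOP, UTP, RRP, IMP, RPF, DBP and related genes, and all 59 matched an entry in the files. None was chosen by its measured change, but the choice was made with earlier results of these data known. The samples are budding yeast W303 strains that express OsTIR1, in which a protein fused to an auxin-inducible degron (AID) is destroyed when the auxin 3-indoleacetic acid (3-IAA) is added. Spt20-AID carries the degron on Spt20, a core subunit of the coactivator SAGA, while Med16/Spt20-AID and Med16/Taf13-AID carry it on 2 proteins at once. Med16 joins the Mediator tail to its core, and Taf13 is a subunit of the general factor TFIID. Each strain grew in YPD, and cultures received 0.5 mM 3-IAA or DMSO for 30 min and then 5 mM 4-thiouracil for 6 min, so that the RNA pulled down and sequenced had been made within the labeling time. There were 3 replicates of each of the 6 groups, or 18 libraries. No strain without a degron was analysed here, and for this reason loss of the tagged proteins cannot be told apart from other actions of 3-IAA.

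In yeast these genes form one of the largest coregulated groups, the Ribi regulon, which growth signals through TORC1, Sch9 and Sfp1 switch on and which stress switches off. RNA polymerase I makes the pre-rRNA, and box C/D and box H/ACA small nucleolar ribonucleoproteins (snoRNPs) modify it. The t-UTP, UTP-B and Mpp10 complexes build the small-subunit processome on it, and helicases, GTPases and early large-subunit factors drive the later steps. Promoters of the regulon are known for a pair of elements, PAC (bound by the repressors Dot6 and Tod6) and RRPE (bound by Stb3).

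The members are first shown by their promoters. The choice of genes used no promoter sequence, but this pair of elements is known from promoters of the same regulon. Its share among the members is therefore a description and not an independent finding. PAC was searched as GATGAG, RRPE as AAAAATTT and TATA as TATAAA or TATATA, on both strands and from 250 bases before to 50 bases after the start codon. PAC was in 57 of 59 members (96.6%) and in 20.4% of all 6001 promoters read. RRPE was in 52 members (88.1%) against 14.1% of all promoters, and both were in 51 members (86.4%) against 5.63%. A TATA match was in 27 members (45.8%), against 59.9% of all promoters. UTP22 (YGR090W) was the member that held neither PAC nor RRPE.

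In 50 members both elements lay wholly upstream of the start codon. RRPE came before PAC in 44 of these (88%), against 57.4% of 249 other promoters with both. In 12 members (24%) exactly 3 bases separated the elements, against 6.02% of the other promoters. Only the closest pair in each promoter was scored. A spacing of 3 bases is the commonest among the members themselves, which favors them here, so this comparison is a description only. The following 6 windows show this spacing in genes of several roles. They are the coding strand, 5′ to 3′, of the RefSeq R64 genome, with RRPE and PAC in capitals (AAATTTTT and CTCATC are the same elements read on the other strand).
MAK16 YAL025C (chrI:101259-101285, minus strand): ttttgAAAAATTTtccGATGAGctttt
UTP20 YBL004W (chrII:227448-227474, plus strand): tccgaAAATTTTTaccGATGAGcattg
PWP2 YCR057C (chrIII:223362-223388, minus strand): tttggAAAAATTTtgcGATGAGctgaa
RRP8 YDR083W (chrIV:611970-611996, plus strand): gcctgAAAAATTTtgcGATGAGctcaa
DBP3 YGL078C (chrVII:361992-362018, minus strand): atgaaAAATTTTTcacCTCATCgcata
GAR1 YHR089C (chrVIII:283413-283439, minus strand): gtgaaAAATTTTTcgaGATGAGgaaag

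The next 5 windows belong to members whose changes stood out or lay at the ends of their role group below. NOG2 has PAC before RRPE, and in NSR1, NOP1, CBF5 and NOP56 the order is that of most members.
NSR1 YGR159C (chrVII:807833-807866, minus strand): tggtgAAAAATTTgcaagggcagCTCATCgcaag
NOG2 YNR053C (chrXIV:723273-723298, minus strand): cgatgCTCATCgcAAAAATTTttcgc
NOP1 YDL014W (chrIV:427135-427170, plus strand): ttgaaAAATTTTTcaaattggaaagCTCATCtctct
CBF5 YLR175W (chrXII:505984-506013, plus strand): atttgAAAAATTTtcaaatGATGAGatgtt
NOP56 YLR197W (chrXII:545951-545980, plus strand): aagtgAAATTTTTttgagtGATGAGatggg

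**Figure D1:**
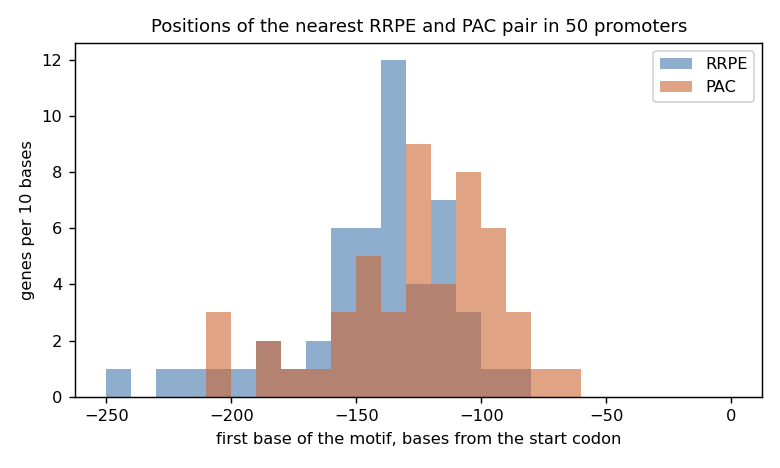
Positions of the first base of RRPE and of PAC, in bases from the start codon (x axis), as the number of genes in each bin of 10 bases (y axis), for the 50 members with both elements upstream. RRPE lies before PAC in 44 of the 50.

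Strand-specific reads on the genes numbered 874975 to 6189719 per library, fewest in the 3-IAA libraries of Med16/Taf13-AID. Each of the 59 members had between 89 and 4725 reads in every library, and all 59 passed the filter of a mean count of 10, which 5567 genes passed. Counts were scaled in 2 ways. Spike-in scaling used size factors from S. pombe cells mixed in by optical density, and it measures change per unit of spike-in, where fewer yeast cells and less RNA per cell cannot be told apart. TMM scaling centers the genes on each other and measures change relative to all genes. On the spike-in scale the median of all genes moved by 0.38 (log2) in Spt20-AID, by 0.31 in Med16/Spt20-AID and by −1.68 in Med16/Taf13-AID. Reads mapping to several places made up 37.9 to 44.8% of reads in Spt20-AID, 43.1 to 54.0% in Med16/Spt20-AID and 44.1 to 58.6% in Med16/Taf13-AID, and in the 2 double degrons every 3-IAA library had more than every DMSO library. Deposited Med16/Taf13-AID files carry another sequencing project number than those of the other strains.

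In Spt20-AID DMSO libraries the members had a median of 498 normalized counts per kilobase of coding sequence, against 187 over 5481 tested genes with a coding length. The snoRNP proteins were high, with a median of 1475 per kilobase for the box H/ACA genes and 1359 for the box C/D genes. CBF5, the pseudouridine synthase of the H/ACA particles, was the highest member at 1715. NSR1, which encodes a nucleolin-like RNA-binding protein, had 1488, and NOP56, a core box C/D protein, had 1486. UTP10 (YJL109C), of the t-UTP complex, was the lowest at 236, next to UTP22 at 241.

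The members' share of the reads was lowest in the DMSO libraries of Med16/Spt20-AID, and the treated libraries lay on different sides of their controls in different strains. In Spt20-AID they took 2.30, 2.31 and 2.32% of sense reads with DMSO and 2.09, 2.14 and 2.24% with 3-IAA. In Med16/Spt20-AID they took 1.65, 1.61 and 1.66% with DMSO and 1.98, 2.01 and 1.98% with 3-IAA. In Med16/Taf13-AID they took 2.61, 2.18 and 2.48% with DMSO and 2.11, 1.86 and 1.97% with 3-IAA. The treated and control libraries did not overlap within Spt20-AID, Med16/Spt20-AID or Med16/Taf13-AID, and the treated shares were lower in Spt20-AID and Med16/Taf13-AID and higher in Med16/Spt20-AID. A two-sided exact permutation test that treated the libraries as unpaired gave p = 0.1 in each strain, the smallest value that 3 against 3 libraries allow. In Med16/Spt20-AID the replicate numbers were taken as pairs, and there a paired exact test could not give a value this small. Under DMSO the Med16/Taf13-AID shares overlapped those of Spt20-AID, and under 3-IAA those of both other strains.

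**Figure D2:**
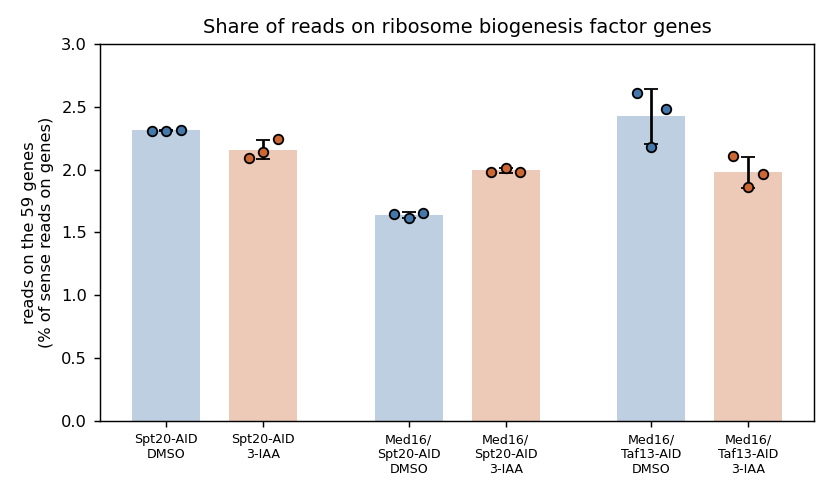
Percent of each library's sense reads on genes that fell on the 59 members (y axis), by strain and treatment (x axis). Points are libraries, bars are means and lines are 1 SD (n = 3), and the Med16/Spt20-AID DMSO libraries lie lowest, at 1.61 to 1.66%.

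Depletion of Spt20 alone lowered most members relative to other genes, with NSR1 lowest, followed by NOG2, CBF5 and DBP3. With TMM scaling 42 of 59 members were downregulated (25.1% of all tested genes were) and 0 were upregulated (17.1% of all genes), at an adjusted p under 0.05 in edgeR. None was upregulated at an unadjusted p under 0.05 or by DESeq2 either. The median change was −0.27 (log2), against 0.02 over all genes. Measured against the spike-in, in which the typical gene rose, 1 member was downregulated (8.08% of all genes) and 2 were upregulated (54.0% of all genes), with a median of 0.10.

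NSR1 fell most in Spt20-AID. Its CPM (counts relative to the TMM-scaled library size) were 774, 685 and 687 with DMSO and 295, 312 and 291 with 3-IAA, groups far from overlapping. The log2 change was −1.26 ± 0.07 (SE, edgeR adjusted p = 2.71e-15), and −0.90 ± 0.14 against the spike-in (adjusted p = 1.22e-08). NSR1 was thus the member downregulated on both scales.

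Among the roles, all 3 box H/ACA genes were downregulated relative to all genes, with a median of −0.54, and all 3 box C/D genes with a median of −0.44. CBF5 had 1015, 923 and 953 CPM with DMSO and 621, 628 and 680 with 3-IAA. Its change was −0.58 ± 0.07 (edgeR adjusted p = 2.03e-08). NOP1, the fibrillarin methyltransferase, had 308, 344 and 332 with DMSO and 208, 222 and 243 with 3-IAA. The NOP1 change was −0.55 ± 0.07 (edgeR adjusted p = 2.97e-07), and the DMSO and 3-IAA libraries of CBF5 and NOP1 did not overlap.

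NOG2, a GTPase that checks the large subunit before export, changed by −0.61 ± 0.08 (edgeR adjusted p = 3.08e-07). Its DMSO libraries had 529, 543 and 549 CPM and its 3-IAA libraries 349, 342 and 374. NOG2 is the member with an intron, and the snoRNA gene SNR191 lies in it on the same strand. No row for that snoRNA was used here, and the share of NOG2 reads that come from it was not tested.

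Among the other roles, 16 of 17 early large-subunit factors were downregulated (median −0.30), from −0.47 in RLP24 (YLR009W) to −0.19 in NOP12 (YOL041C), both of which passed. NOP2 (YNL061W), an rRNA methyltransferase, was the exception, at −0.19. Of 5 helicases 3 were downregulated, led by DBP3 at −0.56, and of 4 assembly GTPases 3 were. The t-UTP genes had 4 of 6 downregulated (median −0.19) and the UTP-B genes 3 of 5 (median −0.20). Among 10 other small-subunit factors 6 were downregulated, with RRP12 (YPL012W) lowest at −0.35. Of the 3 other nucleolar RNA-binding proteins NSR1 was the one downregulated. None of the 3 Mpp10 complex genes passed, with changes of −0.16 in MPP10 (YJR002W, edgeR adjusted p = 0.0685), −0.12 in IMP3 (0.24) and −0.10 in IMP4 (YNL075W, 0.406).

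Against the spike-in, DBP10 (YDL031W), a large-subunit helicase, and NOP14 (YDL148C), a small-subunit factor, were the 2 upregulated members. DBP10 had 973, 1006 and 868 normalized counts with DMSO and 1128, 1027 and 1421 with 3-IAA, a log2 change of 0.33 ± 0.14 (edgeR adjusted p = 0.0336). NOP14 had 885, 892 and 717 with DMSO and 962, 900 and 1215 with 3-IAA, a change of 0.30 ± 0.14 (edgeR adjusted p = 0.0497). These calls rest on replicate 3. Its libraries gave a median member change of 0.56 where the other pairs gave −0.10 and −0.21. With 3-IAA replicate 3 left out, 0 members were upregulated (37.6% of all genes) and 5 downregulated (9.38%). The same counts without DMSO replicate 3 were 0 (36.6%) and 3 (9.81%). Without 3-IAA replicate 2 there were 11 upregulated members (60.2% of all genes), and without DMSO replicate 1 there were 5 (57.7%). Relative to the median of all genes the members lay lower in each of the 3 pairs, by 0.34, 0.32 and 0.20.

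**Figure D3:**
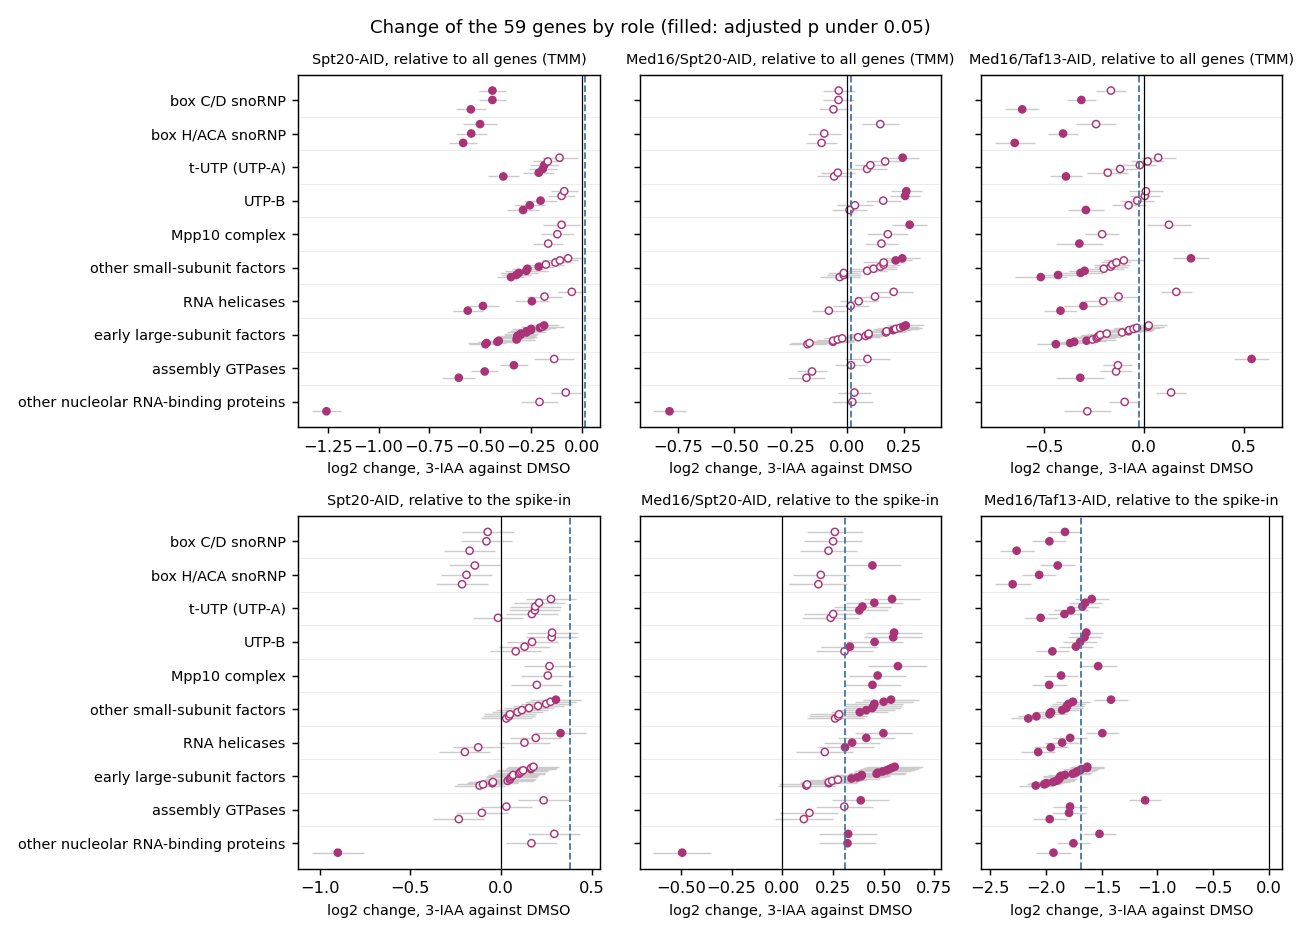
Log2 change of each member with 3-IAA (x axis) by role (y axis) in the 3 strains, relative to all genes (upper row) and to the spike-in (lower row), with horizontal scales that differ between panels. Points are genes, grey lines 1 SE, filled points passed an adjusted p of 0.05, and the dashed line is the median of all tested genes, which lies to the right of all 59 members in Spt20-AID with TMM scaling.

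In Med16/Spt20-AID, where Med16 was depleted together with Spt20, most members did not fall relative to other genes. Against the spike-in most of them rose. No strain with the degron on Med16 alone was analysed here, so Med16 loss cannot be told apart from other differences between the Spt20 strains. With spike-in scaling 37 of 59 members were upregulated (46.2% of all tested genes were) and 1, NSR1, was downregulated (10.3%). The median was 0.38, against 0.31 over all genes, so the members moved about as the typical gene did. With TMM scaling 9 were upregulated (11.9% of all genes) and 1 was downregulated (21.6%), with a median of 0.09 against 0.02.

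In this strain the replicate numbers paired the libraries, and with the replicate as a block 21 members were upregulated with TMM scaling (19.2% of all genes in that fit) and 5 were downregulated (25.1%). The 5 were NSR1, NOG2, NOG1 (YPL093W), NOP16 (YER002W) and RLP7 (YNL002C). The spike-in count of 37 depended on single libraries, as 24 members were upregulated without 3-IAA replicate 2 (29.1% of all genes), 22 without DMSO replicate 2 (26.9%) and 24 without DMSO replicate 3 (19.9%).

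The 9 upregulated members with TMM scaling included IMP3, UTP13, UTP18, UTP15, KRR1 and BFR2 of the small-subunit processome. The others were YTM1, NOP12 and BRX1 of the early large-subunit particle. As 9 of 59 members, they were a share not far above the 11.9% of all tested genes upregulated in Med16/Spt20-AID. Leaving out each library in turn gave 6 to 13 upregulated members. Whether any role was over-represented among the 9 was not tested. IMP3 (YHR148W), of the Mpp10 complex, rose most. Its CPM were 72.9, 67.5 and 73.5 with DMSO and 90.2, 81.9 and 87.1 with 3-IAA, which did not overlap. The IMP3 change was 0.28 ± 0.08 (edgeR adjusted p = 0.00609), and 0.57 ± 0.15 against the spike-in (adjusted p = 0.000655).

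UTP18 (YJL069C), of UTP-B, had 202, 197 and 185 CPM with DMSO and 242, 234 and 224 with 3-IAA. Its change was 0.26 ± 0.07 (edgeR adjusted p = 0.00284). YTM1 (YOR272W), which works with Erb1 and Nop7 in the large-subunit precursor, changed by 0.26 ± 0.08 (edgeR adjusted p = 0.0125), from 153, 148 and 163 to 187, 187 and 183. The call for YTM1 was lost without DMSO replicate 2. Neither gene's 3-IAA libraries overlapped its DMSO libraries.

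NSR1 again went the other way. Its CPM were 296, 307 and 322 with DMSO and 172, 179 and 185 with 3-IAA, without overlap. The change was −0.79 ± 0.07 (edgeR adjusted p = 8.67e-11), and −0.49 ± 0.14 against the spike-in (adjusted p = 0.00255). The snoRNP genes other than GAR1 were near the other members' lower end with TMM scaling. There the box H/ACA median was −0.10 and the box C/D median −0.04. None of the 6 snoRNP genes passed, the smallest edgeR adjusted p being 0.169 in GAR1, which changed by 0.15 ± 0.08. Against the spike-in GAR1 was the snoRNP gene that was upregulated, by 0.44 ± 0.14 (edgeR adjusted p = 0.00574).

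Whether the members responded differently in the 2 Spt20 strains was tested directly, as the difference of the 2 changes. With TMM scaling 38 of 59 members changed more positively in Med16/Spt20-AID than in Spt20-AID (8.19% of all tested genes did) and 0 more negatively (7.24%). None was more negative at an unadjusted p under 0.05 or by DESeq2. The median difference was 0.37, against −0.03 over all genes. With spike-in scaling the median difference was 0.29, against −0.10 over all genes, but 0 members passed in either direction (0.611% of all genes more positive, 2.64% more negative). At an unadjusted p under 0.05 there were 11 more positive and 0 more negative, and DESeq2 also called 0. Without Spt20-AID 3-IAA replicate 3, 1 was more positive (1.06% of all genes), and without its DMSO replicate 3, 2 were (2.17%).

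GAR1, which encodes an H/ACA core protein, differed most. It had 225, 210 and 200 CPM with DMSO and 155, 152 and 142 with 3-IAA in Spt20-AID, where it fell without overlap. In Med16/Spt20-AID it had 125, 122 and 136 with DMSO and 155, 132 and 137 with 3-IAA, which overlapped. The difference was 0.65 ± 0.12 (edgeR adjusted p = 0.000202).

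RRS1 (YOR294W), which recruits the 5S rRNA particle, differed by 0.55 ± 0.14 (edgeR adjusted p = 0.00605), KRR1 (YCL059C), a KH-domain small-subunit factor, by 0.54 ± 0.10 (0.000408), NOP1 by 0.51 ± 0.10 (0.000755) and the helicase HAS1 (YMR290C) by 0.50 ± 0.11 (0.00287). All 6 snoRNP genes were among the 38, as were 11 of 17 early large-subunit factors and 4 of 6 t-UTP genes. UTP22, the member without PAC or RRPE, had the smallest difference, 0.07 ± 0.13 (edgeR adjusted p = 0.761). By median, however, the 51 members with both elements differed by 0.38 and the 8 that lacked one or both by 0.33. NSR1 differed by 0.47 ± 0.10 (edgeR adjusted p = 0.00158), with the smaller fall in the double degron.

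**Figure D4:**
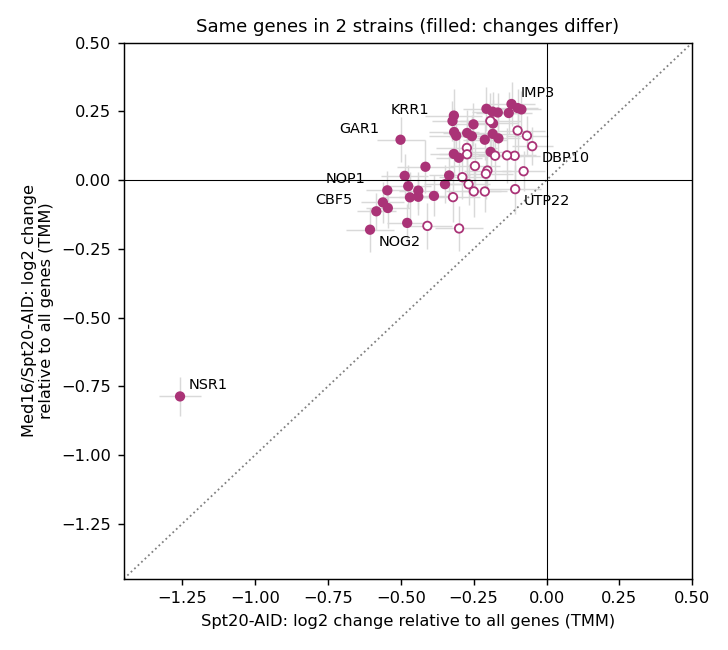
Log2 change of each member relative to all genes (TMM) in Spt20-AID (x axis) and Med16/Spt20-AID (y axis), with lines of 1 SE. Filled points are the 38 members whose changes differed between the strains at an adjusted p of 0.05, the dotted line marks equal change, and all 59 members lie above it.

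The order of the members was partly shared between the 2 strains. Their changes with TMM scaling had a Spearman correlation of 0.64 over the 59 genes, with no sample in common, against 0.58 over all 5567 genes. Members with a higher level per kilobase in DMSO changed more negatively, with a Spearman correlation of −0.61 in Spt20-AID, −0.38 in Med16/Spt20-AID and −0.10 in Med16/Taf13-AID. Level and change share the DMSO libraries. Spearman correlations of the change with coding length were 0.41, 0.04 and 0.21 in the strains in this order. Those with GC content were −0.32, 0.08 and −0.06. The level is itself divided by coding length, and these measures were not told apart. The 51 members with both PAC and RRPE had a median change of −0.30 in Spt20-AID, and the 8 that lacked one or both had −0.17. The 27 members with a TATA match had a median of −0.30 there, and the 32 without had −0.25.

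The DMSO libraries of the 2 strains already differed. Relative to all genes 59 of 59 members were lower in Med16/Spt20-AID than in Spt20-AID (27.3% of all tested genes were) and 0 were higher (26.2%), also at an unadjusted p under 0.05 and by DESeq2. The median was −0.65, against 0.01 over all genes, and members ran from −1.21 in NSR1 to −0.19 in NOP1. Against the spike-in 35 members were higher (94.3% of all genes were) and 0 lower (0.341%; 0 at an unadjusted p under 0.05), with a median of 0.34 against 1.01 over all genes. Without Spt20-AID DMSO replicate 3, 22 were higher (89.9% of all genes) and 1 lower (0.557%). These DMSO libraries are also the controls of both 3-IAA changes, so the lower starting level and the more positive change in the double degron are not independent. Among stress genes, which move against this regulon in many conditions, 8 of 12 were higher and 3 lower in the same comparison with TMM scaling, from −2.09 in HSP12 to 2.56 in CTT1, and their part in the result was not tested.

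**Figure D5:**
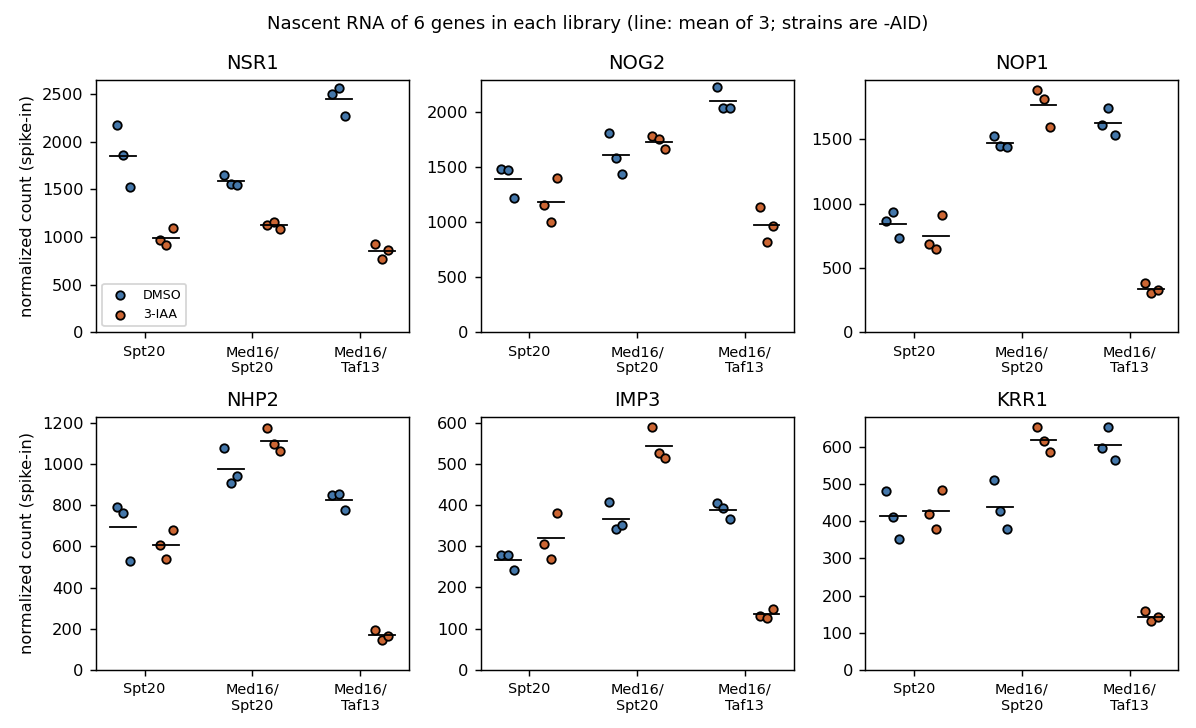
Spike-in normalized counts (y axis) of NSR1, NOG2, NOP1, NHP2, IMP3 and KRR1 in each library by strain (x axis), with DMSO in blue and 3-IAA in orange. Lines are means of 3 libraries, and in all 6 genes the 3-IAA libraries of Med16/Taf13-AID lie below its DMSO libraries.

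In Med16/Taf13-AID every member fell with 3-IAA against the spike-in, along with nearly all genes. With spike-in scaling 59 of 59 members were downregulated (98.2% of all tested genes were) and 0 were upregulated (0.0719%; 0 at an unadjusted p under 0.05 and by DESeq2). The median was −1.83, against −1.68 over all genes. Relative to all genes 18 members were downregulated (14.6% of all genes) and 2 were upregulated (15%), with a median of −0.18 against −0.02. The count of 18 was 9 without 3-IAA replicate 2 (9.84% of all genes), 11 without DMSO replicate 1 (12.1%) and 31 without DMSO replicate 2 (14.1%).

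NHP2 (YDL208W), an RNA-binding protein of the H/ACA particles, fell most. It had 849, 854 and 780 normalized counts (spike-in) with DMSO and 195, 146 and 164 with 3-IAA. The log2 change was −2.30 ± 0.16 (edgeR adjusted p = 5.15e-44), and −0.64 ± 0.10 relative to all genes (adjusted p = 9.76e-06). NOP1 had 1610, 1745 and 1533 with DMSO and 386, 304 and 330 with 3-IAA. It changed by −2.26 ± 0.15 against the spike-in (edgeR adjusted p = 9.4e-47) and by −0.61 ± 0.08 relative to all genes (adjusted p = 1.52e-06). In both genes the treated libraries lay far below the control libraries.

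ENP2 (YGR145W), of the small-subunit processome, had a log2 change of −2.16 ± 0.16 (edgeR adjusted p = 1.52e-41). Its normalized counts were 1043, 905 and 980 with DMSO and 308, 173 and 177 with 3-IAA. With TMM scaling its change was −0.51 ± 0.13 (edgeR adjusted p = 0.00275), a call lost without 3-IAA replicate 2. Across roles with TMM scaling, 2 of 3 box H/ACA genes (median −0.40), 2 of 3 box C/D genes (−0.31), 4 of 17 early large-subunit factors (−0.22), 2 of 5 helicases (−0.20), 1 of 5 UTP-B genes (−0.03) and 1 of 6 t-UTP genes (−0.07) were downregulated. So were 4 of 10 other small-subunit factors (ENP2, KRR1, ENP1 and UTP20, median −0.18), IMP4 of the 3 Mpp10 genes (−0.21) and LSG1 (YGL099W) of the 4 GTPases (−0.13), but none of the 3 other nucleolar RNA-binding proteins (−0.09).

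NOG2 fell least against the spike-in, with a log2 change of −1.11 ± 0.15 (edgeR adjusted p = 3.63e-14). Its CPM were 557, 448 and 535 with DMSO and 841, 642 and 754 with 3-IAA, without overlap, an increase relative to all genes of 0.54 ± 0.09 (adjusted p = 1.37e-05). BFR2 (YDR299W), a small-subunit factor, rose relative to all genes by 0.24 ± 0.09 (edgeR adjusted p = 0.0469). Its CPM were 277, 219 and 274 with DMSO and 322, 307 and 276 with 3-IAA, and the call was lost without 3-IAA replicate 1 or 2 or DMSO replicate 2. NSR1, which fell most in the Spt20 strains, moved with the typical gene here, by 0.14 ± 0.07 (edgeR adjusted p = 0.174), with 627, 565 and 595 CPM in DMSO and 681, 607 and 677 in 3-IAA.

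The Taf13 and Spt20 double degrons were compared in the same way, but their files carry different sequencing project numbers, so strain and sequencing project cannot be told apart. With spike-in scaling 59 of 59 members changed more negatively in Med16/Taf13-AID (93.9% of all tested genes did) and 0 more positively (0.449%; 0 at an unadjusted p under 0.05 and by DESeq2). KRR1 differed most, by −2.59 ± 0.22 (edgeR adjusted p = 8.36e-31), with changes of 0.50 in Med16/Spt20-AID and −2.09 in Med16/Taf13-AID. ENP2 (−2.57), ERB1 (YMR049C, −2.56), NOP1 (−2.52) and NHP2 (−2.49) followed.

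With TMM scaling 24 members were more negative in Med16/Taf13-AID (14% of all genes) and 2 more positive (20.3%), with a median of −0.28. The 2 were NSR1, by 0.92 ± 0.10 (edgeR adjusted p = 9.58e-09), and NOG2, by 0.72 ± 0.12 (9.62e-06). KRR1 was the most negative, at −0.64 ± 0.12 (edgeR adjusted p = 7.72e-05). The 24 were 14 without Med16/Spt20-AID DMSO replicate 2 (12.7% of all genes), 12 without Med16/Taf13-AID 3-IAA replicate 2 (11.5%), 9 without its DMSO replicate 1 (11.7%) and 37 without its DMSO replicate 2 (14.2%).

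The rest of the ribosome assembly pathway was examined with lists of genes outside the 59, relative to all genes. Over all tested genes the Spt20-AID shares were 25.1% downregulated and 17.1% upregulated. For Med16/Spt20-AID they were 21.6% and 11.9%, and for Med16/Taf13-AID 14.6% and 15%. Of 43 other small-subunit assembly factors 22 were downregulated in Spt20-AID (median −0.22), 8 were upregulated in Med16/Spt20-AID (0.12) and 14 were downregulated and 3 upregulated in Med16/Taf13-AID (−0.15). Of 45 other large-subunit factors 26 were downregulated in Spt20-AID (−0.25), 7 were upregulated and 1 downregulated in Med16/Spt20-AID (0.04), and 12 were downregulated in Med16/Taf13-AID (−0.16). The 1 was the helicase gene DBP2, at −1.11, which also led the fall in Spt20-AID at −1.31. Of 15 RNA polymerase I genes 5, 0 and 6 were downregulated in the 3 strains in this order, and 1, RRN3, was upregulated in Med16/Taf13-AID, by 1.24.

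Of 13 RNA polymerase III genes 4 were downregulated in Spt20-AID, 5 were upregulated in Med16/Spt20-AID and 3 were downregulated in Med16/Taf13-AID. Of 7 other snoRNP proteins 4 were downregulated in Spt20-AID, from −0.66 in SNU13, 3 were upregulated and 1 was downregulated in Med16/Spt20-AID, and 2 were downregulated in Med16/Taf13-AID (median −0.25). Of 137 ribosomal protein genes 132 were downregulated in Spt20-AID (median −0.43). In Med16/Spt20-AID 5 of them were downregulated and 2 upregulated (0.01), and in Med16/Taf13-AID 16 were downregulated and 18 upregulated (−0.01). Of 12 heat shock and stress genes 5 were upregulated and 3 downregulated in Spt20-AID (median 0.22), 11 were downregulated in Med16/Spt20-AID (median −0.94), and 5 were downregulated and 1 upregulated in Med16/Taf13-AID (median −0.30). The medians of the assembly factors and of the members had the same sign in each strain, but those in Med16/Spt20-AID were small. The median of the stress genes had the opposite sign in the Spt20 strains, with genes called in both directions in Spt20-AID.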

How the data were processed

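Newly synthesized RNA from 18 libraries was analysed, 3 for each of 3 strains and 2 treatments. The authors aligned reads to sacCer3 with STAR 2.6.1a and deposited raw counts per gene. The sense-strand counts were used, and the annotation behind them is not given in the sources used here. Testing covered the 5567 genes whose mean count reached 10, with edgeR 4.0.16 (R 4.3.3) quasi-likelihood fits over all 6 groups, with Benjamini-Hochberg adjustment over all genes and a threshold of 0.05. Least squares on the study's listed mean normalized counts of 1950 genes gave the size factors of the S. pombe spike-in (median relative error 6.9e-05% over 1396 genes). TMM was the other scaling. Both fits were checked on simulated data without size factor error or a shift of all genes, so this check does not bear on the choice of scaling. Alternatives were DESeq2 1.42.0, median-of-ratios, other count filters, both strands, fewer strains, a replicate block and each library left out. Length and GC trend removal was chosen after seeing the data.

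Same-numbered libraries deviated together in every pair only in Med16/Spt20-AID (correlations 0.23 to 0.47), where the numbers were taken to pair the split cultures. P-values measure the spread between replicates pooled over all 6 groups, not that of 1 strain alone, and all genes of 1 library share its size factor error. The members and gene lists were chosen with earlier results of these data known. Genes named were the 3 largest called changes in each direction per strain and scaling that agreed in each pair, the 5 largest called differences, the extremes of each role group and each list's highest or lowest gene. MPP10, IMP4, NOG1, NOP16, RLP7, NOP2 and UTP22, where outside this rule, were singled out after their values were seen. Promoters were read from the RefSeq R64 genome, which matched 6008 identifiers, 6001 of them with a promoter window. The protein removed by the degron is not measured by its transcript.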

Additional observations from a re-analysis of the deposited data

Results flagged for a closer look

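Responses of the members differed between strains by a test of the difference in the following cases. Between the Med16/Taf13-AID and Med16/Spt20-AID responses, 59 members were more negative in the former with spike-in scaling, as were 93.9% of all tested genes. Relative to all genes (TMM), 24 members were more negative (14% of all genes) and 2, NSR1 and NOG2, were more positive (20.3%). The 24 ranged from 9 to 37 with 1 library left out. Files of these strains carry different sequencing project numbers, and strain and project cannot be told apart. Between the Med16/Spt20-AID and Spt20-AID responses, 38 members were more positive in the former relative to all genes (8.19% of all genes), while 0 passed with spike-in scaling.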

How the results depend on the processing

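Scaling moved the counts most. With TMM in place of spike-in scaling, the downregulated members went from 1 to 42 and the upregulated from 2 to 0 in Spt20-AID, the upregulated from 37 to 9 in Med16/Spt20-AID, and the downregulated from 59 to 18 and the upregulated from 0 to 2 in Med16/Taf13-AID. Members more positive in Med16/Spt20-AID than in Spt20-AID went from 0 to 38, those more negative in Med16/Taf13-AID than in Med16/Spt20-AID from 59 to 24 and those more positive from 0 to 2. Members higher in Med16/Spt20-AID DMSO went from 35 to 0 and lower ones from 0 to 59. DBP10 (−0.0489), NOP14 (−0.0672), the Spt20-AID median (−0.27) and the DMSO median (−0.65) then changed sign. The Spt20-AID spike-in median of 0.10 also turned to −0.054 without 3-IAA replicate 3 and to −0.021 without DMSO replicate 3, in a range of −0.054 to 0.218 over the libraries left out. The cause of these shifts was not tested beyond the scaling itself.

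The 2 upregulated members of Spt20-AID (spike-in) became 5 with DESeq2, 1 with both strands counted or no count filter, and 0 with only the strains compared or with length and GC trends removed, and that removal gave 2 downregulated. The 9 upregulated members of Med16/Spt20-AID (TMM) became 18 with both strands or no filter and 19 with only the strains compared, and the 1 downregulated became 2 with DESeq2 or with only the strains compared and 4 with length and GC trends removed. The 2 upregulated of Med16/Taf13-AID (TMM) became 1 with both strands or with only the strains compared.

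The replicate block gave 21 upregulated and 5 downregulated members in Med16/Spt20-AID (TMM) and 0 upregulated in Spt20-AID (spike-in), and moved no other count by over 1.5 times. With TMM scaling it gave 49 members more positive in Med16/Spt20-AID than in Spt20-AID (12.9% of all genes). It gave 35 more negative in Med16/Taf13-AID than in Med16/Spt20-AID (17.9%) and 26 downregulated in Med16/Taf13-AID (17.4%). In Spt20-AID and Med16/Taf13-AID the numbers were not taken as pairs, with lowest same-number correlations of 0.069 and 0.032. In each of these strains 3 of 3 3-IAA libraries and 2 of 3 DMSO libraries correlated best with their own number. The block was not fitted for the comparison of DMSO libraries.

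Leaving out each library in turn gave, relative to all genes, 30 to 45 downregulated members in Spt20-AID, 6 to 13 upregulated in Med16/Spt20-AID, 9 to 31 downregulated and 1 to 2 upregulated in Med16/Taf13-AID, 27 to 43 for the first strain difference and 9 to 37 more negative for the second. With spike-in scaling it gave 1 to 5 downregulated and 0 to 11 upregulated in Spt20-AID, 22 to 40 upregulated in Med16/Spt20-AID, and 0 to 2 more positive for the first difference. For the DMSO comparison it gave 22 to 42 higher and 0 to 1 lower with spike-in scaling and 57 to 59 lower relative to all genes. In all, 161 of 188 counts under other settings and 169 of 192 with a library left out stayed within 1.5 times. Depth limits Med16/Taf13-AID most, where members had as few as 89 reads.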

Other observations

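Regulators of the regulon did not move as one group. Relative to all genes, of which 25.1% were downregulated and 17.1% upregulated in Spt20-AID, 4 of the 15 listed were upregulated and 2 downregulated in Spt20-AID, where KOG1, a TORC1 subunit, was highest at 0.36. CRF1, a corepressor of ribosomal protein genes, was lowest at −1.40 there and at −2.38 in Med16/Spt20-AID, where 3 were downregulated (21.6% of all genes). In Med16/Taf13-AID 3 were downregulated, from −0.76 in ABF1, and 1 was upregulated. TOD6, which binds PAC, had the highest value in Med16/Spt20-AID, 0.17, without passing the test.

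Antisense reads were few on the members. They made up 0.32 to 0.41% of the members' stranded reads in Spt20-AID and 0.47 to 0.60% in Med16/Spt20-AID. In Med16/Taf13-AID they made up 0.45, 0.55 and 0.70% with DMSO and 0.81, 0.89 and 1.04% with 3-IAA, without overlap. Over all tested genes the antisense share in that strain was 2.74 to 2.83% with DMSO and 5.06 to 5.17% with 3-IAA. RPF1 (YHR088W) and GAR1 are neighbours that point toward each other with 298 bases between their coding sequences.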
